A study of Mus musculus with 157 samples.

Results

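The gene-body occupancy of RNA polymerase II (Pol II) 4 h after retinoic acid (RA) was compared with that of untreated cells in mouse E14 embryonic stem cells. The libraries were chosen by their labels: every gene-body library of the antibodies NTD and Ser2p at 0 h or 4 h, which makes 10 of the 157 samples of the series. For each antibody there were 2 libraries at 0 h (replicates 1 and 4) and 3 at 4 h (replicates 1, 3 and 4). All 10 came from wildtype E14 cells, an established mouse line, grown on gelatin with serum and leukemia inhibitory factor (LIF). The 0 h cells were untreated and the 4 h cells had received 1 µM RA. The labels call the assay xChIP. They do not name the replicates as separate cultures, and p-values then cover only variation among libraries, which may be technical. That variation was estimated over all libraries of an antibody, from 0 to 72 h, and not over these 10 alone.

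Pol II is the enzyme that transcribes protein-coding genes. Its largest subunit ends in a repeated tail, the C-terminal domain, whose serines are phosphorylated in turn: serine 5 near the start of a gene, and serine 2 as the polymerase moves through the gene body in productive elongation. The NTD antibody reads the N-terminal part of that subunit and so total Pol II, whereas Ser2p reads the elongating form. RA enters the nucleus and binds heterodimers of a retinoic acid receptor (RAR) and a retinoid X receptor (RXR), which sit on short DNA repeats called RA response elements. In embryonic stem cells the best known early targets are the enzymes that clear RA (the Cyp26 family), the retinal reductase Dhrs3, the receptor gene Rarb, and the anterior Hox genes that pattern the hindbrain.

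Depth over gene bodies was 16378557 to 25696364 reads for NTD and 18045745 to 24964851 for Ser2p. Levels are given as CPM (the count divided by the library's total times edgeR's TMM scaling factor for that library, in units of 1e6). Levels of different genes are set side by side only as FPKM, which also divides by gene length. The window counted is not defined in the sources used here and was inferred from the ratio of deposited counts to FPKM. Set to 1 in the median gene of 100 kb or more (where the 5th percentile was 0.57), that ratio per gene length had a median of 1.00 in genes under 5 kb, so the window is taken to follow the whole gene in most genes, introns and promoter-proximal end included. The summed level of the 5 stem cell markers (Pou5f1, Nanog, Sox2, Zfp42, Esrrb) was 24.8 to 35.6 FPKM at 0 h and 22.5 to 26.6 at 4 h with NTD, and 10.7 to 14.6 and 11.6 to 15.3 with Ser2p. Sums over 9 primitive endoderm markers were 6.18 to 6.53 FPKM at 0 h and 5.63 to 6.27 at 4 h with NTD, and 6.99 to 8.08 and 6.75 to 8.03 with Ser2p. Trophoblast markers (6 genes) summed to 4.14 to 4.70 FPKM at 0 h and 4.22 to 4.68 at 4 h with NTD, and fibroblast markers (6 genes) to 3.86 to 4.37 and 3.65 to 4.23. With Ser2p these sums were 5.23 to 5.90 and 4.54 to 5.67 for trophoblast, and 5.07 to 5.27 and 4.32 to 4.83 for fibroblast. Markers of two-cell-like cells summed to under 1 FPKM in every library, and 1 of the 4 in the NTD table was at 0 in all. The median gene-body level of all transcripts was 0.853 to 0.880 FPKM with NTD, and input libraries were not analysed here, so reads that do not come from bound Pol II are part of every level. In such bulk libraries, fewer cells with polymerase on a gene and less polymerase per cell cannot be told apart.

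With NTD, 5 genes rose at 4 h: Cyp26c1, Camk2n1, Scube3, Nrip1 and Steap3. Their gene-body counts rose by 1.87-fold to 2.60-fold, and in each of them all 3 libraries at 4 h lay above both libraries at 0 h, as did 10.7% of all 21879 symbols tested. No gene fell. These are calls of edgeR's quasi-likelihood test at a Benjamini-Hochberg adjusted p under 0.05 over 31843 transcripts: 6 transcripts were higher (0.0188%) and 0 lower (0%), or 5 of 21879 symbols (0.0229%), against 860 higher and 385 lower at an unadjusted p under 0.05. With Ser2p, edgeR called 0 of 32123 transcripts higher (0%) and 0 lower (0%), with 1657 higher and 1319 lower at an unadjusted p under 0.05 and a smallest adjusted p of 0.199. DESeq2, run as an alternative, called 91 NTD transcripts higher and 5 lower, and 78 Ser2p transcripts higher and 0 lower. The NTD count fell to 0 with the authors' own scale factors (adjusted p from 0.0567 to 0.0632 for the 5 genes) and when any 1 library other than 4 h replicate 1 was left out, whereas the log2 changes of the 5 genes stayed between 0.83 and 1.43 in all 13 settings.

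Cyp26c1 (chr19:37685112-37693320) encodes a cytochrome P450 that oxidises RA for removal. Its NTD level was 5.14 and 4.85 CPM in the 0 h libraries (replicates 1 and 4) and 12.6, 12.9 and 13.6 CPM in the 4 h libraries (replicates 1, 3 and 4). The groups were far apart and each was tight, and the log2 change was 1.38 ± 0.20 (SE; edgeR adjusted p = 0.0417). Its Ser2p level was 5.46 and 5.72 CPM at 0 h and 10.6, 9.80 and 10.3 at 4 h, a log2 difference of 0.87 ± 0.22 that did not pass the test (edgeR adjusted p = 0.372).

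Camk2n1 (chr4:138455148-138460126) encodes an inhibitor of the calcium- and calmodulin-dependent kinase CaMKII. NTD reads over it were 3.46 and 3.47 CPM at 0 h and 8.11, 8.91 and 9.55 CPM at 4 h. The 2 untreated libraries were nearly equal and all treated ones lay above them, with a log2 change of 1.35 ± 0.21 (SE; edgeR adjusted p = 0.0459). With Ser2p the values were 3.23 and 3.66 CPM at 0 h and 5.89, 5.93 and 6.87 at 4 h, again without overlap (log2 difference 0.86 ± 0.16, edgeR adjusted p = 0.296).

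Scube3 (chr17:28142100-28174851) encodes a secreted protein with epidermal growth factor repeats. The NTD libraries gave 16.3 and 15.3 CPM at 0 h and 35.5, 31.1 and 44.0 CPM at 4 h. The 4 h values spread more than those at 0 h, yet the lowest of them was well above both (log2 change 1.22 ± 0.18, edgeR adjusted p = 0.0417). Ser2p reads went from 17.3 and 17.0 CPM to 30.3, 26.0 and 33.8 CPM, with a log2 difference of 0.81 ± 0.13 and the smallest adjusted p of the Ser2p table (0.199).

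Nrip1 (chr16:76287403-76373827) encodes RIP140, a corepressor that binds ligand-bound nuclear receptors. Its 86.4 kb body held 47.5 and 51.2 CPM at 0 h and 84.0, 102 and 91.1 CPM at 4 h with NTD (log2 change 0.90 ± 0.14, edgeR adjusted p = 0.0459). The groups did not overlap. With Ser2p it held 51.2 and 52.2 CPM at 0 h and 76.0, 81.2 and 82.0 at 4 h (log2 difference 0.62 ± 0.13, edgeR adjusted p = 0.296).

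Steap3 (chr1:120226414-120271081) encodes a ferrireductase that serves iron uptake. Both of its transcripts passed the threshold in the NTD table and, being of 1 gene, are not independent. NTD reads over the one with more reads were 26.1 and 27.1 CPM at 0 h and 48.4, 52.6 and 48.1 CPM at 4 h (log2 change 0.90 ± 0.12, edgeR adjusted p = 0.0417). Ser2p reads were 27.2 and 25.8 CPM at 0 h and 39.7, 41.2 and 39.0 at 4 h, a log2 difference of 0.59 ± 0.10 (edgeR adjusted p = 0.199). In both antibodies each group was narrow and the groups were apart.

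**Figure D1:**
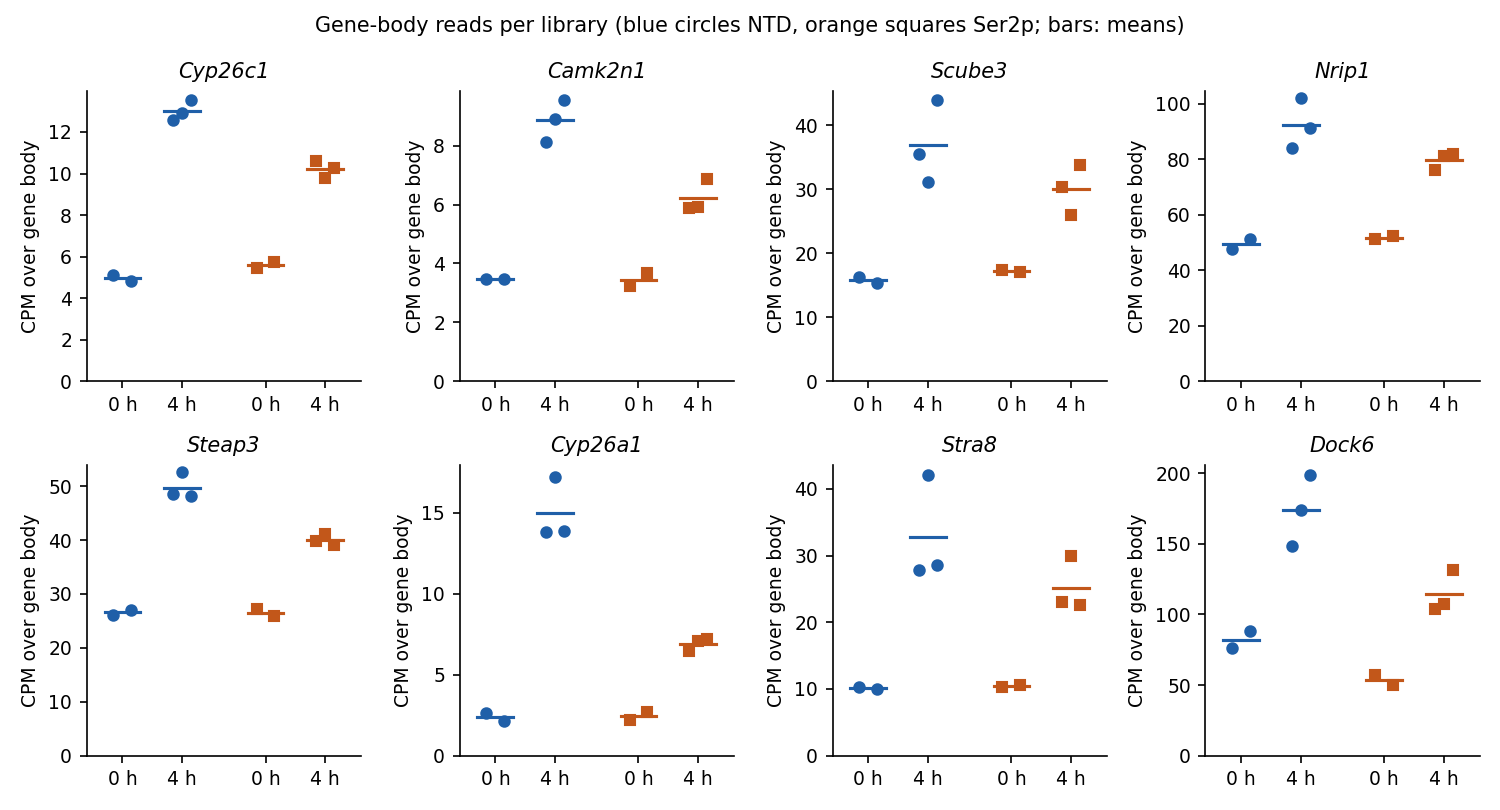
Gene-body CPM in each of the 10 libraries for the 5 called genes and for Cyp26a1, Stra8 and Dock6, which did not pass edgeR's test; blue circles are NTD, orange squares Ser2p, points single libraries and horizontal bars group means, and each panel has its own axis from 0. In all 8 genes and with both antibodies the 3 libraries at 4 h lie above the 2 at 0 h, as in 973 of 21803 symbols tested with both. For the 5 called genes the naming rule required this with NTD.

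Cyp26a1 (chr19:37697738-37701536), the main RA-clearing enzyme of the early embryo, lies 4.42 kb from Cyp26c1 and had the largest NTD log2 difference of all tested symbols. Its NTD level was 2.64 and 2.17 CPM at 0 h and 13.8, 17.2 and 13.9 CPM at 4 h. The lowest treated library was thus far above both untreated ones, but its standard error was wide and the difference did not pass edgeR's test (log2 difference 2.64 ± 0.51, adjusted p = 0.129; DESeq2 adjusted p = 0.00071). With Ser2p it was 2.18 and 2.69 CPM at 0 h and 6.47, 7.08 and 7.22 CPM at 4 h (1.50 ± 0.39, edgeR adjusted p = 0.383; DESeq2 adjusted p = 0.0103).

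The promoter of Cyp26a1 and that of Rarb are printed because both hold an exact direct repeat of the kind RAR and RXR bind, and because NTD rose at both promoters while only the first of the 2 genes had a gene body that stood apart at 4 h. The sequences are RefSeq's, build GRCm38.p6, 250 bases ending just before the start in RefSeq's promoter table and written in the direction of the gene. Both genes as annotated begin further upstream of that start, by 70 bases in Cyp26a1 and by 506.9 kb in Rarb, so the printed bases lie partly or wholly inside the gene's span. The repeat searched was any pair of the unit AGGTCA, the variant AGTTCA, the variant GGGTCA and the variant GGTTCA in the same orientation with 5, 2 or 1 bases between them, on both strands. Capitals mark the match, which has 5 bases between its repeat units in both genes.
Cyp26a1, chr19:37697558-37697807, plus strand: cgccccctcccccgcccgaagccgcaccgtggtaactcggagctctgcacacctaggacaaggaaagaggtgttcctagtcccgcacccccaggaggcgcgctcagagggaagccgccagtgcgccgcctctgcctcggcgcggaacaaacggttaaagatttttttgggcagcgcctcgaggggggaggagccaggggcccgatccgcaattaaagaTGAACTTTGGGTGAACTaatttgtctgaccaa
Rarb, chr14:16575477-16575726, minus strand: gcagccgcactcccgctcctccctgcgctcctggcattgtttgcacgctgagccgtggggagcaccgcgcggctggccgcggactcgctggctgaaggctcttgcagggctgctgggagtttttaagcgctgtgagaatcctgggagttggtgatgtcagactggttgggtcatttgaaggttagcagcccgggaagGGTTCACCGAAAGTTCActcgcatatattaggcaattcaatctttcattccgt

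In Cyp26a1 the match lies 32 to 16 bases before the start and reads on the strand opposite to the gene, and in Rarb it lies 53 to 37 bases before the start on the strand of the gene. A match with 5 bases between the units occurs in the windows (250 bases before to 50 after a start) of 31 of 27025 genes with a promoter in the RefSeq table (0.115%), one with 2 bases in 84 (0.311%) and one with 1 base in 71 (0.263%). Of the 5 genes that rose, 4 had a promoter in the table and 0 held a match of any of the 3 kinds in that window. A match is a description of the letters and shows no binding.

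The other members of the RA metabolism and transport machinery moved less. Of 22 RA metabolism genes, 1 (Cyp26c1) passed edgeR's test with NTD, 5 were higher at an unadjusted p under 0.05 (2.48% of all symbols), and 7 had all 4 h libraries above both 0 h libraries, where 10.7% of all 21879 symbols did. Another 4 had all 4 h libraries below (8.83% of all symbols). With Ser2p 7 of the 22 lay fully above in that sense and 3 fully below, where 15.4% and 16% of 22154 symbols did. The list's median log2 difference was 0.01 with NTD and 0.04 with Ser2p, against -0.01 in both for all symbols, with members on both sides. DESeq2 called 3 of the 22 higher with NTD (0.242% of all symbols) and 3 with Ser2p (0.221%), and 0 lower. Dhrs3, which reduces retinal back to retinol, went from 18.4 and 20.2 to 30.7, 35.6 and 33.4 CPM with NTD (log2 difference 0.78 ± 0.27, edgeR adjusted p = 0.848), without overlap between the groups. Cyp26b1, the third RA hydroxylase, showed 11.3 and 11.5 against 13.5, 15.3 and 14.9 CPM (0.35 ± 0.20), and Stra6, a membrane receptor for retinol uptake, 11.4 and 9.94 against 14.9, 15.5 and 13.4 CPM (0.45 ± 0.14). Crabp2, the carrier of RA to the nucleus, overlapped between the times (0.16 ± 0.26), and none of these 3 passed the test with either antibody.

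Among 12 receptors and coregulators, 1 (Nrip1) rose with NTD, 3 lay fully above and 1 fully below (10.7% and 8.83% of all symbols), and with Ser2p 6 lay above and 2 below (15.4% and 16%). DESeq2 called 1 of the 12 higher with NTD (0.242% of all symbols) and 2 with Ser2p (0.221%), and 0 lower. Rarg had the highest gene-body FPKM among the 3 RAR genes. With NTD it had 33.6 and 39.3 CPM at 0 h and 49.2, 53.2 and 68.9 CPM at 4 h. The log2 difference was 0.65 ± 0.17 (edgeR adjusted p = 0.461). Rara had 37.4 and 38.7 against 45.4, 56.6 and 58.8 CPM (0.49 ± 0.16, edgeR adjusted p = 0.724). The groups were apart in both genes without passing edgeR's test. With Ser2p Rarg gave 0.65 ± 0.17 (edgeR adjusted p = 0.372). Rarb differed from them: its gene spans chr14:16430839-17082331, and the reads over its most counted transcript were 190 and 202 CPM at 0 h and 213, 193 and 172 CPM at 4 h with NTD (-0.03 ± 0.14, edgeR adjusted p = 0.999). The Ser2p values of Rarb, 215 and 274 against 236, 220 and 203 CPM, overlapped as well (-0.16 ± 0.11, edgeR adjusted p = 0.553). The shorter Rarb transcripts, whose start is the promoter shown above, gave 0.10 ± 0.11 with NTD and -0.09 ± 0.10 with Ser2p.

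Stra8 and Cdx1 are RA targets outside that machinery: Stra8 starts meiosis in germ cells, and Cdx1 is a homeobox regulator of axial patterning. Stra8 had 10.3 and 9.94 CPM at 0 h and 27.8, 42.01 and 28.6 CPM at 4 h with NTD (log2 difference 1.69 ± 0.31, edgeR adjusted p = 0.110), and 10.3 and 10.6 against 23.0, 29.9 and 22.5 CPM with Ser2p (1.26 ± 0.28, edgeR adjusted p = 0.296). Replicate 3 was the highest treated library with both antibodies. Cdx1 had 7.83 and 8.48 against 13.5, 12.2 and 18.1 CPM with NTD (0.84 ± 0.20, edgeR adjusted p = 0.321) and 8.59 and 8.92 against 9.62, 9.96 and 12.3 CPM with Ser2p (0.28 ± 0.17, edgeR adjusted p = 0.527). Of the 20 RA targets on this list edgeR called 0 with either antibody. DESeq2 called 3 higher with NTD (0.242% of all symbols) and 1 with Ser2p (0.221%). With each antibody 4 lay fully above, where 10.7% of all symbols did with NTD and 15.4% with Ser2p. Fully below were 1 with NTD and 3 with Ser2p (8.83% and 16% of all symbols). Tgm2, an RA-inducible transglutaminase, overlapped between the times with NTD (0.0043 ± 0.12) and with Ser2p (-0.07 ± 0.11).

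Across the antibodies, DESeq2 called 53 symbols higher (0.242%) and 4 lower (0.0183%) with NTD, and 49 higher (0.221%) and 0 lower (0%) with Ser2p. The 22 symbols on both lists, 41.5% of the first and 44.9% of the second, were singled out after their values were seen, and include the 5 edgeR calls with Cyp26a1, Stra8, Dock6, Cd37, Tead2 and Pigk. Their NTD log2 differences ran from 0.40 to 2.64 (median 0.91) and their Ser2p differences from 0.33 to 1.50 (median 0.78). NTD was the larger in 17 of the 22. In a joint fit of both antibodies, a term for the difference between the Ser2p change and the NTD change was tested: edgeR called 0 of 32232 transcripts (0%), with 148 higher and 246 lower at an unadjusted p under 0.05, and DESeq2 was not run on it. In the 22, the Ser2p change minus the NTD change ran from -1.14 to 0.30 (median -0.14), and the smallest unadjusted p was 0.0524. So no gene's Ser2p change was shown to differ from its NTD change, which is not evidence that they were equal.

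Dock6, an exchange factor for the GTPases Rac1 and Cdc42, had nearly the same change in both. NTD gave 76.2 and 88.0 CPM at 0 h and 148, 174 and 198 CPM at 4 h (log2 difference 1.08 ± 0.19, edgeR adjusted p = 0.102), and Ser2p 57.1 and 49.8 against 104, 108 and 131 CPM (1.10 ± 0.18, edgeR adjusted p = 0.199). Acp5, the tartrate-resistant acid phosphatase, was at the other end, and was singled out for that after its values were seen. It had 4.85 and 5.68 CPM at 0 h and 9.44, 12.2 and 12.1 CPM at 4 h with NTD (1.09 ± 0.18, edgeR adjusted p = 0.0566), but 6.37 and 6.48 against 7.28, 7.29 and 8.37 CPM with Ser2p (0.25 ± 0.11, edgeR adjusted p = 0.523). The difference of -0.83 ± 0.20 between its changes had an unadjusted p of 0.000363 and did not pass after adjustment.

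**Figure D2:**
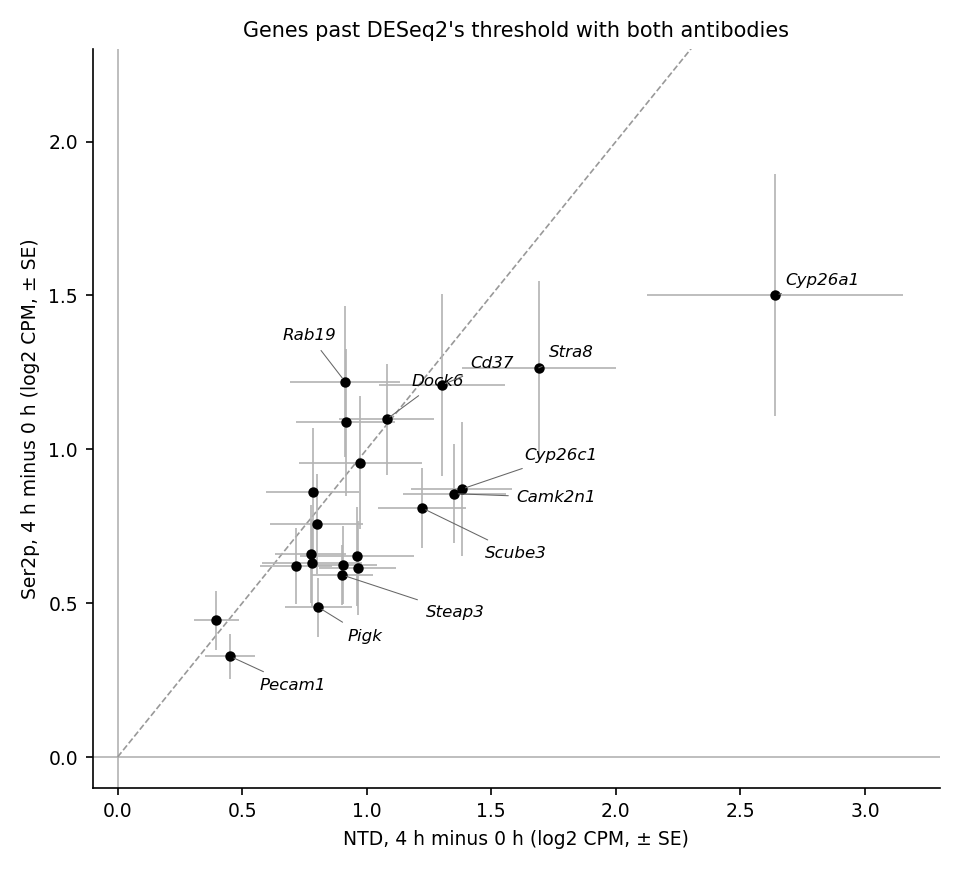
Log2 change from 0 h to 4 h with NTD (horizontal axis) and Ser2p (vertical axis) for the 22 genes past DESeq2's threshold with both antibodies; bars are standard errors and the dashed line marks equal change. Of the 22 points, 17 lie below the line, with Cyp26a1 farthest from it at 2.64 and 1.50.

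Some of these genes are neighbours. Among 82 symbols that DESeq2 called with either antibody, 20 had another called gene within 50 kb, in 14 pairs of which 4 overlap and share reads. Cyp26c1 and Cyp26a1 are such a pair without overlap, and so are Tead2, a DNA-binding partner of the Hippo pathway, and Cd37, a tetraspanin, which are 0.164 kb apart. Tead2 had 19.8 and 24.0 CPM at 0 h and 33.8, 38.4 and 57.0 CPM at 4 h with NTD, and Cd37 had 9.56 and 14.8 against 25.7, 29.6 and 35.0 CPM. In both genes 4 h replicate 4 was the highest library. ChIP reads carry no strand, so reads at such borders cannot be assigned to a gene.

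The anterior Hox genes with all treated NTD libraries above the untreated ones included Hoxa2, Hoxa3, Hoxa4, Hoxa5, Hoxb4 and Hoxc4. Of 15 anterior Hox genes, edgeR called 0 with either antibody. DESeq2 called 2 higher with NTD (0.242% of all symbols) and 0 with Ser2p (0.221%). With NTD 7 lay fully above, where 10.7% of all symbols did, and 0 below (8.83%). With Ser2p 4 lay fully above and 4 fully below (15.4% and 16% of all symbols). At an unadjusted edgeR p under 0.05, 1 was higher and 4 were lower with Ser2p (4.83% and 4.17% of all symbols). Hoxa2, which patterns the hindbrain and the neural crest it sends out, had 2.55 and 3.04 CPM at 0 h and 7.10, 5.15 and 6.11 CPM at 4 h with NTD (log2 difference 1.13 ± 0.31, edgeR adjusted p = 0.572; DESeq2 adjusted p = 0.0468). With Ser2p Hoxa2 gave 0.82 ± 0.32. The median of the list was 0.05 with Ser2p (-0.04 without 0 h replicate 1, 0.19 without 0 h replicate 4). With NTD it was 0.06, from -0.0052 without 4 h replicate 1 to 0.28 without 0 h replicate 4.

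Hoxb1 went the other way with NTD, and 1 library set that value. Its NTD reads were 2.02 CPM in 0 h replicate 1 but 12.1 CPM in 0 h replicate 4, against 2.25, 2.79 and 2.36 CPM at 4 h, which gave a log2 difference of -1.55 ± 0.58 (edgeR adjusted p = 0.983). Without 0 h replicate 4 the difference was 0.28. Ser2p showed no such library for Hoxb1, with 2.09 and 1.77 CPM at 0 h and 2.25, 1.74 and 2.37 at 4 h (0.15 ± 0.35). Hoxb2 followed the same pattern, with NTD values of 2.21 and 4.46 CPM at 0 h and 2.89, 2.97 and 1.85 at 4 h. The 18 posterior Hox genes had a median difference of -0.07 with NTD and -0.14 with Ser2p, and edgeR and DESeq2 called 0 of them.

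Of the 20 naive pluripotency genes 0 lay fully above and 2 fully below with NTD (10.7% and 8.83% of all symbols), against 5 and 0 with Ser2p (15.4% and 16%). Of the 10 general pluripotency genes 3 lay fully above with NTD and 5 with Ser2p, and 0 below. The Ser2p differences of these 10 were all above 0, from 0.21 to 0.59 with a median of 0.35, which was 0.19 without 0 h replicate 4 and 0.54 without 0 h replicate 1. Their NTD median was 0.0036, from -0.17 without 0 h replicate 1 to 0.23 without 0 h replicate 4. Zfp42, a marker of the naive state, had 61.3 and 74.5 CPM at 0 h and 43.1, 40.6 and 38.4 CPM at 4 h with NTD, so that every treated library was lower, but the difference of -0.74 ± 0.27 did not pass (edgeR adjusted p = 0.974). With Ser2p its values overlapped, at 38.7 and 27.8 against 28.7, 23.7 and 27.1 CPM. Pou5f1 (Oct4) had 9.90 and 17.2 CPM at 0 h and 12.1, 10.2 and 13.8 at 4 h with NTD, and Nanog 12.1 and 21.5 against 13.5, 13.3 and 17.7 CPM. In both, 0 h replicate 4 was the highest library, and without it the NTD differences turned from -0.18 and -0.18 to 0.29 for Pou5f1 and 0.30 for Nanog. EdgeR called 0 of the 30 with either antibody. DESeq2 called 2 of the 20 naive genes higher with Ser2p (0.221% of all symbols), Klf4 and Klf2, Krüppel-like factors that sustain the naive state. Klf4 had 8.09 and 5.35 against 13.0, 12.1 and 9.71 CPM, and Klf2 8.32 and 6.57 against 16.6, 17.1 and 14.1 CPM.

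The genes of the amino acid response stood lower with NTD. This list holds Atf4, the transcription factor of that response, and genes of amino acid synthesis, transport and stress that it is known to control. With NTD 12 of the 15 had all 4 h libraries below both 0 h libraries, where 8.83% of all symbols did, and the list's median log2 difference was -0.37, from -0.50 to -0.25 over the settings tried, the latter without 0 h replicate 4. With Ser2p 3 of the 15 lay fully below, where 16% of all symbols did, and the median was -0.12, or -0.014 without 0 h replicate 1. EdgeR called 0 of the 15 with either antibody. At an unadjusted edgeR p under 0.05, 5 were lower with NTD (1.23% of all symbols) and 1 with Ser2p (4.17%). DESeq2 called 1 lower with NTD (0.0183% of all symbols) and 0 with Ser2p (0%). That gene was Psat1, an enzyme of serine synthesis, at 29.3 and 36.9 CPM at 0 h and 19.9, 14.2 and 17.4 CPM at 4 h (-0.95 ± 0.17, edgeR adjusted p = 0.110; DESeq2 adjusted p = 0.000723). Asns, which makes asparagine, had 33.9 and 58.4 against 28.5, 20.7 and 28.0 CPM (-0.84 ± 0.28), Chac1, which degrades glutathione, 9.95 and 13.6 against 7.47, 6.67 and 6.11 CPM (-0.80 ± 0.40), and Trib3, a pseudokinase, 13.3 and 16.5 against 9.03, 9.46 and 11.0 CPM (-0.60 ± 0.27). In all 4 genes 0 h replicate 4 was the highest library. The Ser2p differences were smaller, at -0.38 ± 0.16 for Psat1, -0.34 ± 0.21 for Asns, -0.59 ± 0.42 for Chac1 and -0.34 ± 0.21 for Trib3.

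DESeq2's other lower calls with NTD were Rian, Stc2 and Rn45s. Rian, a maternally expressed non-coding RNA of the Dlk1 locus, had 68.0 and 71.3 CPM at 0 h and 45.2, 46.1 and 38.2 CPM at 4 h (log2 difference -0.69 ± 0.13, edgeR adjusted p = 0.116). Stc2, the glycoprotein stanniocalcin, had 12.7 and 16.9 against 9.03, 8.61 and 6.98 CPM (-0.85 ± 0.20, edgeR adjusted p = 0.278). Rn45s, the ribosomal RNA precursor, is transcribed by Pol I and present in many copies; it had 126 and 256 against 81.6, 57.8 and 54.2 CPM (-1.57 ± 0.30, edgeR adjusted p = 0.129) and its 2 untreated libraries were far from each other.

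Among the immediate early genes, which respond within minutes to serum and growth factors, Egr1 and Fos differed between the treated libraries. Egr1 had 20.04 and 12.9 CPM at 0 h and 55.0, 53.1 and 13.6 CPM at 4 h with NTD, and 9.46 and 4.21 against 29.9, 22.6 and 6.55 CPM with Ser2p. Fos had 13.2 and 12.5 against 23.2, 23.3 and 11.7 CPM with NTD and 4.91 and 3.70 against 11.9, 7.95 and 4.18 CPM with Ser2p. In both genes and with both antibodies 4 h replicates 1 and 3 were high and replicate 4 was below the higher untreated library. Socs3, the feedback inhibitor of LIF signalling, was high in 4 h replicate 1 alone, at 44.0 CPM against 11.5 and 13.5 in the other 4 h libraries and 11.9 and 12.9 at 0 h with NTD. With Ser2p it had 19.3 CPM in that replicate against 4.25 and 5.49. Of 18 immediate early genes edgeR and DESeq2 called 0 with either antibody; 5 lay fully above with NTD and 10 with Ser2p, where 10.7% and 15.4% of all symbols did. Their median was 0.28 with NTD (0.15 under a replicate block, 0.40 without 4 h replicate 4) and 0.49 with Ser2p (0.32 without 0 h replicate 4, 0.65 without 0 h replicate 1). The 13 genes of the LIF and STAT3 list had an NTD median of 0.15, which was 0.010 without 0 h replicate 1 and 0.42 without 0 h replicate 4. Their Ser2p median of 0.47 became 0.15 without 4 h replicate 1. EdgeR called 0 of them, and with Ser2p DESeq2 called 2 of them higher (0.221% of all symbols), Klf4 and Pim1. Pim1, a kinase induced by LIF, had 6.82 and 5.01 CPM at 0 h and 11.9, 11.7 and 12.4 CPM at 4 h with Ser2p (1.02 ± 0.23, edgeR adjusted p = 0.296).

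With Ser2p the 4 h difference followed a gene's own level. Symbols were ranked by mean FPKM and split into 4 classes of equal size over the 5 libraries of an antibody, the same libraries that were compared. The median Ser2p log2 difference was -0.14 in the lowest class, -0.07 in the second, 0.03 in the third and 0.20 in the highest, and with NTD it was -0.10, -0.04, 0.04 and 0.08. In the highest Ser2p class 35.2% of symbols lay fully above and 1.59% fully below, and in the lowest 3.01% above and 27.8% below. The median of the highest class was 0.11 without 0 h replicate 4 and 0.30 without 0 h replicate 1. The 20 ribosomal protein genes had a median of 0.48 with Ser2p, with members from 0.32 to 0.65, and 3 of them lay fully above, a share close to the 15.4% of all symbols. That median was 0.27 without 0 h replicate 4 and 0.68 without 0 h replicate 1. Their NTD median of 0.04 ran from -0.17 without 0 h replicate 1 to 0.27 without 0 h replicate 4. The 12 reference genes had medians of 0.35 with Ser2p (0.20 without 0 h replicate 4) and 0.12 with NTD (0.013 under a replicate block). Actb (beta-actin) had 19.9 and 14.6 CPM at 0 h and 22.6, 29.7 and 32.3 at 4 h with Ser2p, and 53.9 and 79.5 against 54.0, 77.2 and 76.2 CPM with NTD. Of the 49 symbols DESeq2 called higher with Ser2p, 43 were in the highest class. Of 11 p53 targets 8 lay fully above with Ser2p (15.4% of all symbols) and 2 with NTD (10.7%). Their Ser2p median was 0.38, or 0.20 under a replicate block, and edgeR called 0 of them, 0 also at an unadjusted p under 0.05.

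The spread of levels within each library is given beside this. The 99th percentile of gene-body FPKM was 8.48 and 6.08 in the Ser2p libraries at 0 h and 8.28, 10.6 and 11.0 at 4 h. It was lowest in 0 h replicate 4, while 0 h replicate 1 was above 4 h replicate 1, so the times overlapped. With NTD the untreated libraries had 17.7 and 21.2 and the treated ones 16.2, 23.4 and 22.7, also with overlap. The part of this spread in the Ser2p differences was not tested. Beside level, length went with the difference: symbols of 100 kb or more had a median of -0.10 with Ser2p and -0.08 with NTD, and 32.2% of them lay fully below with Ser2p, where 11.2% of symbols under 10 kb did.

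**Figure D3:**
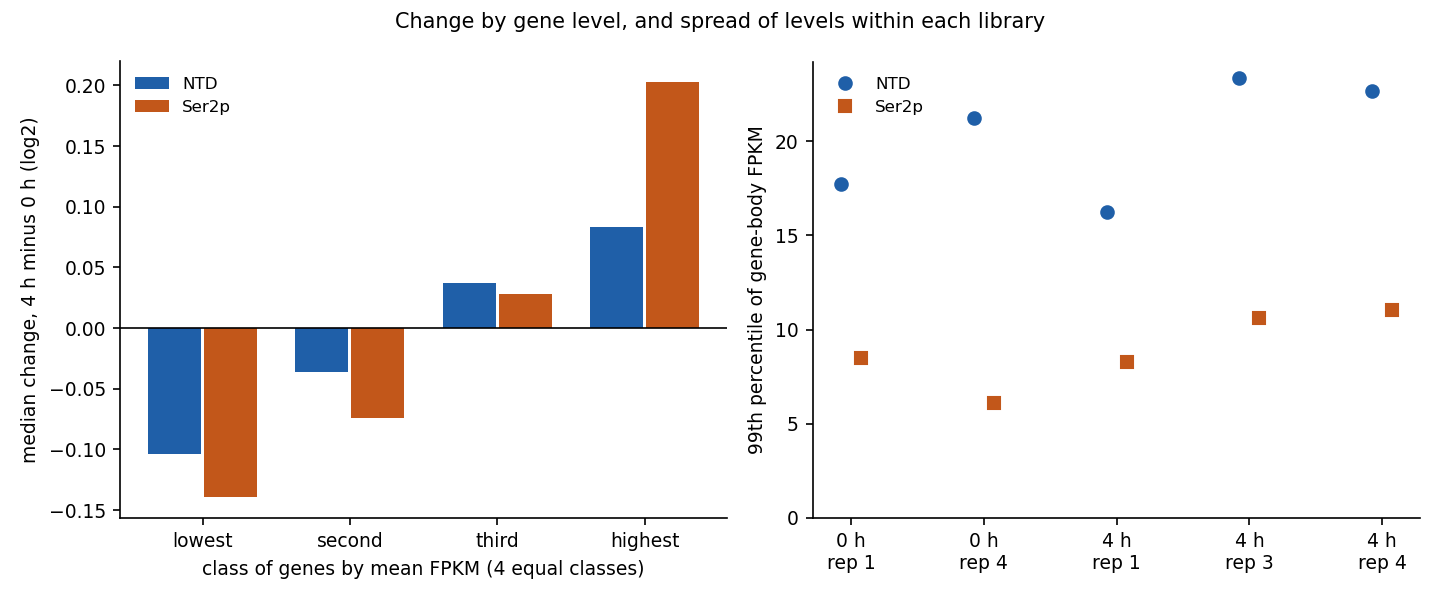
Left, the median log2 difference between 4 h and 0 h in each of the 4 classes of genes by mean FPKM (bars from 0, blue NTD, orange Ser2p); right, the 99th percentile of gene-body FPKM in each library (one point per library, axis from 0). The Ser2p median runs from -0.14 in the lowest class to 0.20 in the highest, and the Ser2p percentile is lowest in 0 h replicate 4 at 6.08.

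The values at 2 h and 6 h share the 0 h libraries with those at 4 h, against which the 22 genes named by both antibodies were chosen, so differences above 0 at these times follow in part from that choice and are given as a description. Their median NTD log2 difference from 0 h was 0.59 at 2 h, 0.91 at 4 h and 0.96 at 6 h, and the Ser2p medians were 0.69, 0.78 and 0.77. At 2 h edgeR called 0 of all transcripts higher or lower with either antibody (0%; 312 higher and 186 lower at an unadjusted p under 0.05 with NTD, 3109 and 1256 with Ser2p). At 6 h it called 22 higher (0.0691%) and 0 lower with NTD, which included 10 of the 22 symbols, and 0 with Ser2p (2248 higher and 2176 lower at an unadjusted p under 0.05). With NTD 21 of the 22 were higher at 4 h than at 2 h and with Ser2p 17. The 22 were chosen for high values at 4 h, so these counts also follow in part from that choice. Between 4 h and 2 h, which uses no 0 h library, edgeR called 0 of 31843 NTD transcripts (0%; 352 higher and 258 lower at an unadjusted p under 0.05) and 0 of 32123 Ser2p transcripts (0%; 349 and 573), and DESeq2 called 0 in both. Cyp26c1 went through 0.79 at 2 h, 1.38 at 4 h and 1.79 at 6 h with NTD, and Cyp26a1 through 2.10, 2.64 and 2.82. Scube3 stood at 1.04, 1.22 and 1.30, and Dock6 at 0.97, 1.08 and 1.21. Psat1 had -0.49 at 2 h, -0.95 at 4 h and -0.57 at 6 h.

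**Figure D4:**
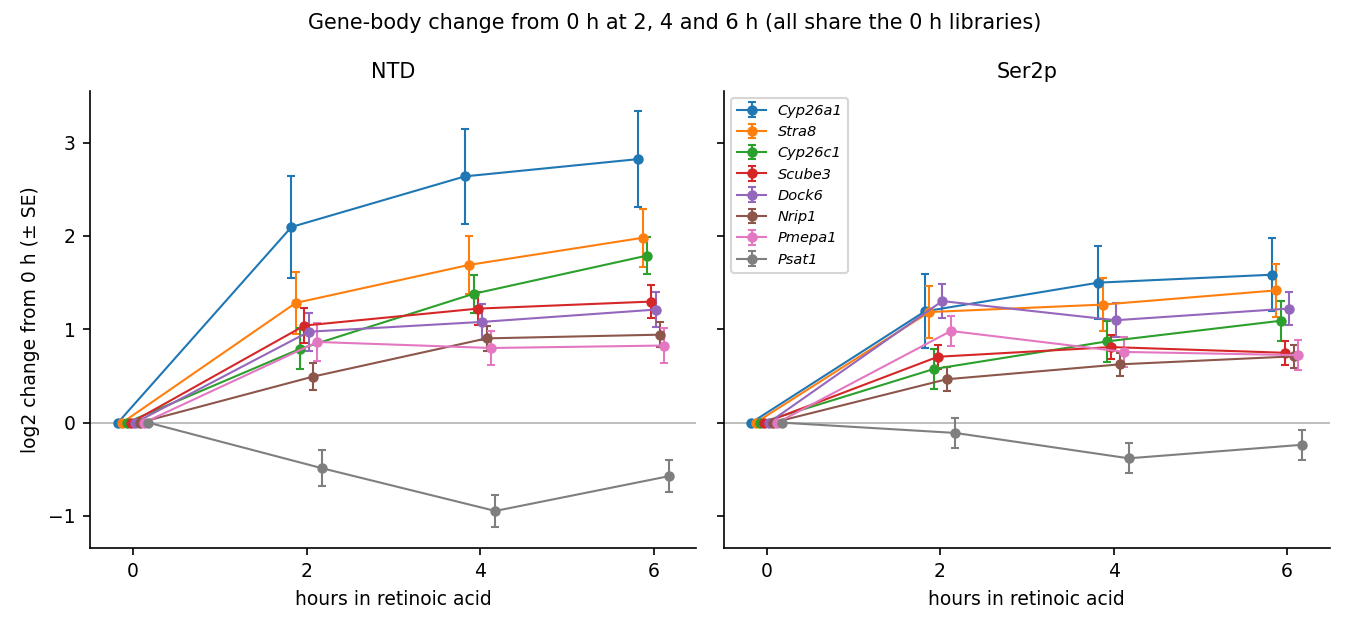
Log2 change from 0 h of gene-body reads at 2, 4 and 6 h of RA for 8 genes with NTD (left) and Ser2p (right); points are edgeR estimates, bars standard errors, and 0 h is set to 0. Cyp26a1 is highest with NTD at each time (2.10, 2.64 and 2.82) and Psat1 is lowest at 4 h (-0.95).

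Beside the gene bodies stand promoter reads, counted within 1 kb of the start, which overlap the body window as inferred above and so are not independent of it. With NTD edgeR called 87 of 31868 promoter windows higher (0.273%) and 139 lower (0.436%), and without 0 h replicate 4 it called 16 and 2. With Ser5p it called 4 of 32774 higher (0.0122%) and 1 lower (0.00305%), and 0 and 0 without 0 h replicate 4. Over the bodies of the 87 higher promoters, 82 of 87 NTD differences were above 0 (median 0.77), as were 77 of 86 with Ser2p (median 0.56), and 4 of the 6 called body transcripts were among them. The 139 lower promoters had a median NTD promoter difference of -1.80, which was -0.13 without 0 h replicate 4, and a median body difference of -0.32 over the 134 that were tested, of which 0 passed the body test.

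Gene by gene, the promoters of several RA targets rose where their bodies did not pass. At the Rarb promoter NTD rose by a log2 change of 1.63 ± 0.28 (edgeR adjusted p = 0.000372; 1.98 without 0 h replicate 4), while both antibodies gave body differences close to 0 as stated above. Cdx1's promoter rose by 2.21 ± 0.30 (edgeR adjusted p = 2.01e-05) against 0.84 over its body, and that of Dhrs3 by 1.36 ± 0.26 (edgeR adjusted p = 0.00138) against 0.78. At Cyp26a1 promoter and body were close, with 2.55 ± 0.33 (edgeR adjusted p = 1.48e-05) and 2.64 ± 0.51. Scube3 was the reverse, with a body that rose by 1.22 and a promoter difference of 0.62 ± 0.28 that did not pass (edgeR adjusted p = 0.786). Ser5p at the promoter passed edgeR's test for Steap3 (1.26 ± 0.24, adjusted p = 0.0296) and not for Rarb (1.21 ± 0.32, adjusted p = 0.250). The Psat1 promoter fell by 1.33 on the log2 scale with NTD (SE 0.21, edgeR adjusted p = 0.00015). Its value without 0 h replicate 4 is not given here. Over all 139 lower promoters the median of -1.80 became -0.13 without that library.

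**Figure D5:**
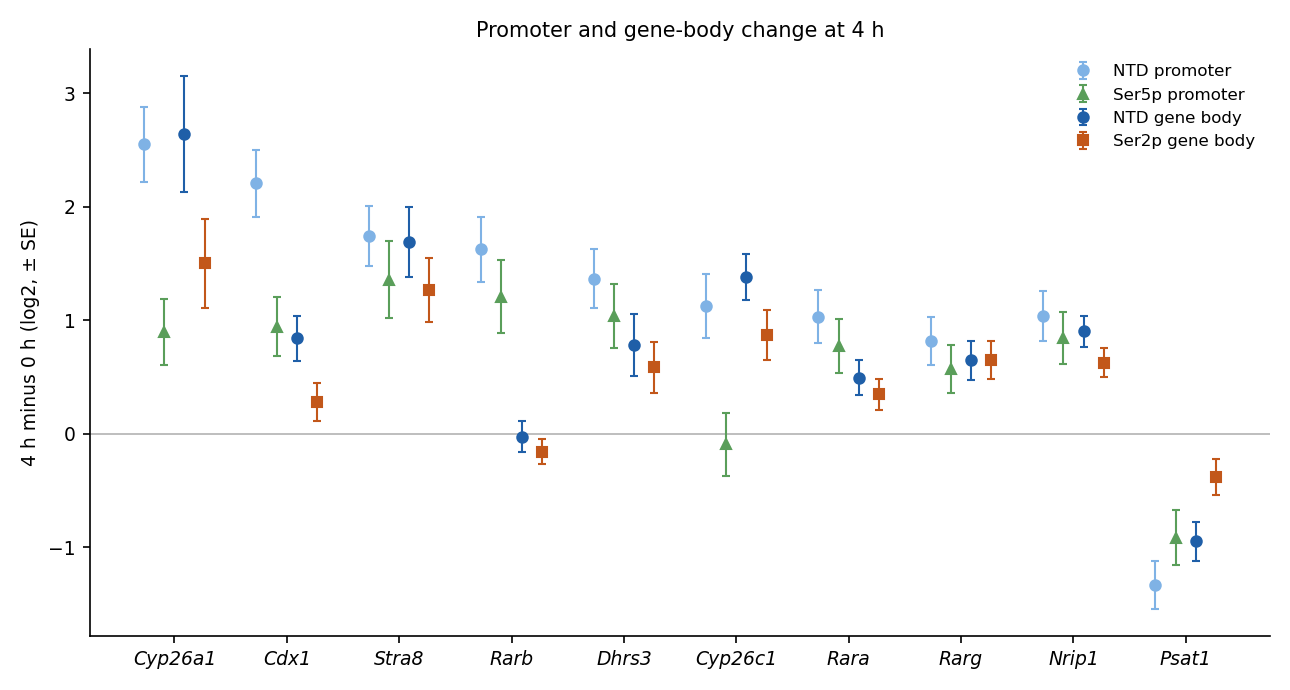
Log2 change from 0 h to 4 h at the promoter (NTD and Ser5p) and over the gene body (NTD and Ser2p) for 10 genes; points are edgeR estimates and bars standard errors. Promoter and body values are each those of the transcript with the most reads in that window, which need not be the same transcript. Rarb has 1.63 at its promoter with NTD and -0.03 over its body (0.10 over its shorter transcripts, not drawn), whereas Cyp26a1 has 2.55 and 2.64.

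For the other lists described here, the shares of all symbols to read beside the counts are 10.7% fully above and 8.83% fully below with NTD, and 15.4% and 16% with Ser2p. EdgeR and DESeq2 called 0 members of each with either antibody. Of 18 primitive endoderm genes 0 lay fully above and 6 fully below with NTD, and 0 and 3 with Ser2p. Their median was -0.07 in both, and 1 was lower at an unadjusted edgeR p under 0.05 with NTD (1.23% of all symbols). Of 30 homeobox and patterning genes known as Polycomb targets 3 lay above and 1 below with NTD, and 0 and 2 with Ser2p. Neural progenitor genes (21 measured) had 2 above and 2 below with each antibody, and mesoderm genes (15) 2 and 0 with NTD and 0 and 2 with Ser2p. The fibroblast genes (12) had 1 above and 1 below with NTD, and 2 above and 5 below with Ser2p. The 25 genes of Pol II pausing and elongation had 6 above and 0 below with NTD, and 9 and 1 with Ser2p. Of 20 genes of the cell cycle and replication 2 lay above with NTD and 8 with Ser2p, with 0 below. The 13 genes of FGF and ERK feedback had 5 above and 1 below with NTD and 7 and 0 with Ser2p, and medians of 0.22 and 0.28.

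In the authors' deposited table, whose log2 values are shrunken, 126 NTD transcripts were higher and 8 lower at 4 h with an adjusted p under 0.05, and 119 Ser2p transcripts were higher and 0 lower. By symbol, the authors' deposited table named 79 genes with NTD, of which 49 were also among the 57 called by DESeq2 here (62.0% of theirs and 86.0% of these). With Ser2p the authors' deposited table named 70 and DESeq2 here 49, with 39 in common (55.7% and 79.6%).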

How the data were processed

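The 10 libraries were taken from 2 tables of NTD and Ser2p reads per RefSeq transcript over gene bodies, and 2 further tables gave NTD and Ser5p reads within 1 kb of the start. The values the authors deposited are raw counts, which are whole numbers, a normalized signal that is each count times 1 factor per library, FPKM values, and their own shrunken log2 fold changes with adjusted p-values. Per the submitters' processing notes, Bowtie2, SAMtools, MACS2 and DESeq2 were used with the builds mm10 and dm6. The read counter, the gene-body window and software versions were not given in the sources used here. Per the labels' track names, reads were uniquely mapped and duplicates removed. A further 60 per-sample value columns of these tables were not used.

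The counts of all time points of an antibody (0 to 72 h) were fitted together with edgeR 4.0.16 (quasi-likelihood test, TMM scaling, filterByExpr, no replicate block) in R 4.3.3 with limma 3.58.1 and data.table (version 1.17.8), and 4 h was tested against 0 h at a Benjamini-Hochberg adjusted p under 0.05 over all tested transcripts. "Rose" and "fell" are used for these calls. The antibody by time interaction was tested in a joint fit. Alternatives were DESeq2 1.42.0, its size factors, the authors' scale factors, no filter, the 0 h and 4 h libraries only, a replicate block, 1 transcript per symbol, and each library left out. For genes, the transcript with the most reads stands for a symbol, chosen separately for promoters and bodies. CPM are raw counts over the library total multiplied by its TMM factor, times 1e6. A ± after a log2 value is its standard error. "Fully above" or "fully below" means that all 4 h libraries lay beyond both 0 h libraries. Figures were drawn with matplotlib 3.10.9 and pandas 2.3.3 in Python 3.11.15.

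The edgeR calls were named by rule: called, at least 2 CPM on average, no overlap between the groups, and up to 12 rises and 10 falls, plus 41 fixed genes and called list members. Others are said to have been singled out after their values were seen; this also holds for every gene named for its DESeq2 call. Some named members are counted in their lists but not reported here. The members and gene lists were chosen with earlier results of these data known. Gene positions are from RefSeq (GRCm38.p6), which matched 99.1% of symbols, 1-based. Transcripts of 1 gene, and 10194 NTD and 10193 Ser2p transcripts with the counts of another, are not independent. Transcripts without a symbol held 0.0145% to 0.0173% of the reads of the 10 libraries; they stayed in library sizes and tests and out of counts by symbol. Replicates differed beyond counting noise (chi-square per transcript 3.12 to 10.5), so each library counted once. The biological coefficient of variation was 0.118 for NTD and 0.0899 for Ser2p. Tested on simulated counts at the same design, edgeR recovered 30% of 1.5-fold rises, 96% of 2-fold and 100% of 3-fold rises and 94% of 2-fold falls for NTD (31735 genes, 9 false calls), and 60%, 98%, 100% and 96% for Ser2p (32039 genes, 11 false calls). Those counts were drawn independently for each transcript, without deviations shared by a whole library. The shares therefore do not show that uncalled genes lacked such changes. Cyp26a1 with NTD (2.64) and Rab19 with Ser2p (1.22) were not called.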

Additional observations from a re-analysis of the deposited data

How the results depend on the processing

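With NTD the number of transcripts higher at 4 h was 6, and became 11 with DESeq2's size factors, 0 with the authors' scale factors, 11 with no filter on low counts, 54 with the 0 h and 4 h libraries only and 91 with DESeq2; leaving out 1 library each gave 0 to 12. The number lower was 0, and became 5 with the 0 h and 4 h libraries only and 5 with DESeq2. With Ser2p the number higher was 0, and became 62 with the 0 h and 4 h libraries only and 78 with DESeq2; it was 0 in every other setting, each left-out library included. List members higher with NTD were 0 with the authors' scale factors, 8 with the 0 h and 4 h libraries only and 9 with DESeq2, and from 0 to 2 without 1 library each; members lower were 2 and 1 in the latter pair of settings, and members higher with Ser2p 7 and 9. The interaction and 4 h against 2 h gave 0 calls in every setting run. At the promoters, leaving out 0 h replicate 4, an alternative chosen after seeing the data, left 16 NTD windows higher and 2 lower, and 0 and 0 with Ser5p. The causes were not tested.

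The labels do not say what a replicate number shares, and 0 h and 4 h have only numbers 1 and 4 in common, so a pairing is not given by the design. Deviations of same-numbered libraries correlated across transcripts at 0.35 and 0.37 with NTD, and at -0.55 and -0.42 with Ser2p. They were taken from the mean of each time, so the libraries at 0 h mirror each other. Crossing replicates 1 and 4 between the times gave the same values with opposite sign, and the values of an antibody are not independent. With a replicate block the NTD count was 42 higher and 1 lower, Ser2p stayed at 0, and list members higher with NTD were 4. Under the block the NTD difference of Actb was -0.021, Gapdh -0.076, Meis1 -0.0055 and Rarb 0.022, and the Ser2p difference of Dnmt3b -0.039, Gata6 0.11 and Meis2 -0.013. Ser2p values also turned with the authors' scale factors for Gata6 (0.018) and Lefty2 (0.0050), and for Gata6 with 1 transcript per symbol (0.0062).

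Over the left-out libraries, genes near 0 or high in 0 h replicate 4 changed sign. With NTD the log2 ranges were -0.19 to 0.36 for Actb, -0.13 to 0.072 for Dnmt3b, -0.21 to 0.10 for Esrrb, -0.56 to 0.16 for Fgf4, -0.021 to 0.37 for Gapdh, -2.29 to 0.28 for Hoxb1, -0.79 to 0.22 for Hoxb2, -0.53 to 0.30 for Nanog, -0.60 to 0.12 for Nr0b1, -0.51 to 0.29 for Pou5f1, -0.10 to 0.051 for Rarb, -0.10 to 0.15 for Sox17, -0.42 to 0.10 for Sox2, -0.12 to 0.33 for Tbx3, -0.18 to 0.53 for Tdgf1 and -0.074 to 0.088 for Tgm2. With Ser2p they were -0.083 to 0.29 for Crabp2, -0.059 to 0.10 for Dnmt3b, -0.25 to 0.28 for Gata6, -0.22 to 0.40 for Hoxb2, -0.21 to 0.21 for Lefty2, -0.0092 to 0.058 for Meis2, -0.32 to 0.028 for Rarb, -0.24 to 0.095 for Sox17 and -0.19 to 0.053 for Tgm2. None of these genes was called. Of the values of named genes under an alternative, 762 with NTD and 821 with Ser2p kept direction and side of the threshold, 73 and 47 newly passed it, 25 and 0 no longer did, and 28 and 20 changed sign. Depth limits the low genes: Cyp26a1 had 2.17 to 2.69 CPM at 0 h.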

Other observations

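Beyond the RA targets, several genes lay fully above at 4 h with both antibodies, as did 973 of 21803 symbols tested with both. The genes named here are given as values, were singled out after their values were seen, and did not pass edgeR's test. Gpx4, the glutathione peroxidase that protects lipids from oxidation, had 50.1 and 45.9 CPM at 0 h and 82.1, 102 and 88.0 CPM at 4 h with NTD, and 16.3 and 10.7 against 24.1, 32.8 and 29.1 CPM with Ser2p (log2 differences 0.92 ± 0.20 and 1.09 ± 0.24). Pmepa1, a feedback inhibitor of TGF-beta signalling, had 51.8 and 68.9 against 98.2, 93.8 and 123 CPM with NTD and 45.6 and 44.4 against 71.8, 63.9 and 92.3 CPM with Ser2p (0.80 ± 0.19 and 0.76 ± 0.16). Rab19, a small GTPase, had 38.5 and 49.2 against 73.3, 80.1 and 94.8 CPM and 29.7 and 19.7 against 48.4, 50.7 and 73.2 CPM (0.91 ± 0.22 and 1.22 ± 0.25). Pigk, a subunit of the GPI transamidase, came closest to the edgeR threshold among the long genes, with 43.5 and 41.2 against 64.5, 87.2 and 70.5 CPM with NTD over 128.8 kb (0.81 ± 0.13, edgeR adjusted p = 0.0589).

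With Ser2p, DESeq2 also called the endoplasmic reticulum chaperones Calr (10.7 and 9.81 CPM at 0 h; 19.01, 27.6 and 21.9 at 4 h) and Hspa5 (12.8 and 8.80; 17.5, 23.2 and 19.5), and Eras, a Ras protein of embryonic stem cells (4.46 and 4.17; 8.76, 8.33 and 7.30). EdgeR's adjusted p was 0.372, 0.372 and 0.337. Eras and Hspa5 lay fully above with NTD as well, at 8.99 and 12.3 against 19.9, 16.9 and 16.8 CPM and at 27.2 and 30.7 against 36.1, 53.2 and 40.7 CPM. Hspa5 overlaps Rabepk and shares reads with it.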
